A study of Homo sapiens with 6 samples.

Results

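The genes described here are the D cyclins (CCND1, CCND2, CCND3), their partner kinases (CDK4, CDK6), 3 inhibitors of these and related kinases (CDKN1A, CDKN1B, CDKN2B) and 2 members of the retinoblastoma family (RB1, RBL2). They were taken by symbol from the deposited count table, where all 10 were found among 17534 genes. RNA sequencing was done on cells labelled NCI-H1703, which the labels describe as a squamous lung cancer line, in 3 libraries of cells with a hairpin RNA (shRNA) directed at PPM1G and 3 control libraries. The control libraries have the genotype label Sh-NC, while the series text calls the control cells wild-type. The study asked how expression differs when PPM1G, a nuclear serine/threonine phosphatase of the PP2C family, is depleted. How many hairpins or clones were used, and whether replicates came from separate cultures, is not given in the sources used here, so p-values measure the spread between these libraries, which may be technical.

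D cyclins are made in response to growth factors and activate CDK4 and CDK6, which phosphorylate the RB protein and its relatives. Unphosphorylated RB holds the E2F transcription factors in check. Its phosphorylation lets E2F factors switch on cyclin E and the genes of DNA replication, and so commits the cell to S phase. The INK4 inhibitors, such as the CDKN2B product p15, bind CDK4 and CDK6 alone. The CIP/KIP inhibitors, such as the CDKN1A product p21 and the CDKN1B product p27, bind cyclin-CDK complexes and block cyclin E-CDK2. In lung cancers this pathway is commonly altered, by loss of INK4 genes or RB1 or by gain of D cyclin or kinase genes.

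The libraries held 31337553 to 35838246 counts, and the 10 genes had between 269 counts (CCND2) and 21841 counts (CCND1) in a library. Levels are given as CPM (counts scaled to library total with TMM factors) when 1 gene is compared between groups. They are given as the authors' FPKM (fragments scaled to transcript length and library total), which is per length, when genes are compared with each other. The PPM1G transcript was at 182, 194 and 188 CPM in PPM1G shRNA libraries 1 to 3, against 333, 308 and 324 CPM in control libraries 1 to 3, a log2 fold change of −0.77 (SE 0.03). Markers were read against the cell label. Of 8 squamous lung carcinoma markers, 6 were in the table, and their summed level was 4.29 to 4.80 FPKM in PPM1G shRNA libraries and 8.54 to 9.71 FPKM in control libraries. Almost all of this was SOX2, while KRT6A, KRT14, DSG3 and PKP1 had at most 7 counts in a library. The lung adenocarcinoma markers summed to 65.0 to 70.7 FPKM in PPM1G shRNA libraries and 44.7 to 50.2 FPKM in control libraries, mostly NKX2-1, with 3639 to 4417 counts in a library. NKX2-1 was not called, and NAPSA averaged 14.8 FPKM in PPM1G shRNA libraries and 1.37 FPKM in control libraries. The other adenocarcinoma markers, SFTPB, SFTPC and SLC34A2, had at most 3 counts in a library, so this list was not borne out as a whole either. The squamous identity in the labels was thus not borne out by its keratin and desmosome markers. PDGFRA, a receptor gene known to be amplified in NCI-H1703, had 4 to 8 counts in a library, which goes against the labelled line itself. The identity of the cells was not tested further, and the library groups are called by their labels. The mesenchymal markers, mostly VIM, summed to 941 to 952 FPKM in PPM1G shRNA libraries and 1517 to 1559 FPKM in control libraries. By gene this list was divided, with 2 of the 4 genes tested higher and 2 lower. VIM and COL1A2 had log2 fold changes of −0.88 and −0.69, while COL1A1 and PDGFRB had 1.15 and 1.26. The leukocyte list summed to 335 to 353 FPKM in PPM1G shRNA libraries and 704 to 736 FPKM in control libraries, carried by the lysosomal gene CD68, while PTPRC and CD3E had at most 5 counts in a library. The epithelial list summed to 176 to 187 FPKM in PPM1G shRNA libraries and 171 to 182 FPKM in control libraries. KRT8 and KRT18 carried almost all of it, and EPCAM had 339 to 439 counts in a library. CDH1, KRT19 and ESRP1 had at most 16, 8 and 17 counts in a library. The endothelial list stayed under 1 FPKM in all 6 libraries. The part of these marker differences in the results below was not tested.

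With PPM1G shRNA, the cyclin D1 transcript was at 0.152 of its control level, while the transcripts of 3 CDK inhibitors were at 1.56-fold to 3.01-fold of theirs. CDK6 and CCND2 rose, CCND3 and RBL2 fell, and CDK4 and RB1 differed by less than 10%. In edgeR's quasi-likelihood test fitted over 13060 genes, 5 of the 10 genes were called higher and 4 lower at an adjusted p under 0.05, and RB1 was not called. This count is to be read against a background in which 82.9% of all genes tested were called, 41.5% higher and 41.3% lower. Of the 10 genes, 3 were called with at least a 2-fold change (CCND1, CDKN1B and CDKN2B), beside 24.2% of all genes tested. PPM1G shRNA and control CPM ranges were separate for 9 of the 10 genes, beside 83.7% of all genes tested. The median log2 fold change was 0.28 over the 10 genes and 0.01 over all genes tested, and the median absolute log2 fold change was 0.67 and 0.54. The share called among the 10 genes was thus near that among all genes tested, so the sizes and directions below carry the description. In bulk libraries such as these, fewer cells with a transcript and less of it per cell cannot be told apart.

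**Figure D1:**
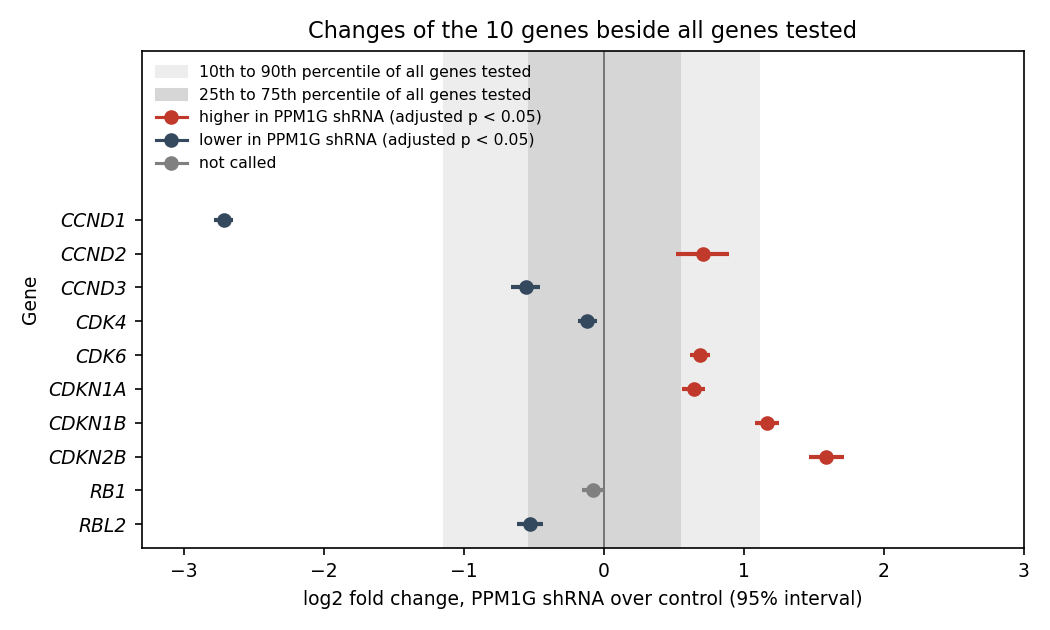
Each point is the log2 fold change of 1 gene in PPM1G shRNA over control libraries (3 each), with its 95% interval from edgeR's quasi-likelihood fit. The darker and lighter grey bands span the 25th to 75th and the 10th to 90th percentile of all 13060 genes tested. CCND1 at −2.71 lies far left of the bands, CDKN1B at 1.17 and CDKN2B at 1.59 lie right of them, and CDK4 and RB1 lie next to 0.

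Among the D cyclins, CCND1 fell steeply. CCND1 (Entrez 595; chromosome 11, positions 69641156 to 69654474 on GRCh38) encodes cyclin D1, the D cyclin most often overexpressed in solid tumours. It stood at 94.3, 89.5 and 97.8 CPM in PPM1G shRNA libraries 1 to 3, against 637, 605 and 604 CPM in control libraries 1 to 3. Every PPM1G shRNA library was thus far below every control library, and the libraries of a group lay close together. The means were 93.8 ± 4.2 CPM in PPM1G shRNA libraries and 616 ± 19 CPM in control libraries (SD, n = 3 each). CCND1 fell by 2.71 on the log2 scale (SE 0.03, edgeR adjusted p = 3.4e-34), to 0.152 of the control level (95% interval 0.145 to 0.160). Among all genes tested, 2.66% had a larger absolute log2 fold change.

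CCND3 (Entrez 896; chromosome 6, positions 41934933 to 42050035) encodes cyclin D3, which is prominent in lymphoid cells. It stood at 33.9, 34.1 and 33.2 CPM in PPM1G shRNA libraries 1 to 3, against 49.8, 47.6 and 51.6 CPM in control libraries 1 to 3. The groups did not overlap, and CCND3 fell by 0.56 on the log2 scale (SE 0.05, edgeR adjusted p = 7.6e-12), to 0.679 of the control level. CCND2 (Entrez 894; chromosome 12, positions 4273762 to 4305353) encodes cyclin D2 and went the other way. It stood at 13.4, 13.2 and 14.2 CPM in PPM1G shRNA libraries 1 to 3, against 8.98, 7.84 and 8.18 CPM in control libraries 1 to 3. The lowest PPM1G shRNA library was above the highest control library, and CCND2 rose by 0.71 (SE 0.09, edgeR adjusted p = 2.3e-08), or 1.63-fold (95% interval 1.43 to 1.86). The antisense gene CCND2-AS1 overlaps the CCND2 locus in RefSeq up to position 4276184. Since no strand setting is stated, its reads in that stretch cannot be told apart from those of CCND2.

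Because the D cyclins can each pair with either kinase, their levels were also set side by side per length. CCND1 averaged 22.9 ± 1.0 FPKM in PPM1G shRNA libraries and 140.3 ± 4.1 FPKM in control libraries. CCND3 averaged 12.0 ± 0.17 FPKM in PPM1G shRNA libraries and 16.5 ± 0.62 FPKM in control libraries. CCND2 averaged 2.17 ± 0.082 FPKM in PPM1G shRNA libraries and 1.24 ± 0.086 FPKM in control libraries. The order CCND1, CCND3, CCND2 was therefore kept in both groups, with no overlap between neighbours. The summed D cyclin level was 37.1, 36.1 and 38.0 FPKM in PPM1G shRNA libraries 1 to 3, against 162.9, 155.2 and 155.8 FPKM in control libraries 1 to 3. CCND1 made up 61.9%, 60.6% and 63.0% of this sum in PPM1G shRNA libraries 1 to 3, against 89.1%, 89.1% and 88.3% in control libraries 1 to 3. The share of CCND1 was lower by 27.0 percentage points, with an exact two-sided permutation p of 0.1, the smallest that 3 against 3 libraries allow. CCND3 held 32.3% ± 1.3 of the sum in PPM1G shRNA libraries and 10.4% ± 0.46 in control libraries, and CCND2 held 5.85% ± 0.098 in PPM1G shRNA libraries and 0.784% ± 0.034 in control libraries (SD, n = 3 each). The fall of the sum was thus mostly that of CCND1, and the rise of CCND2 added under 1 FPKM.

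**Figure D2:**
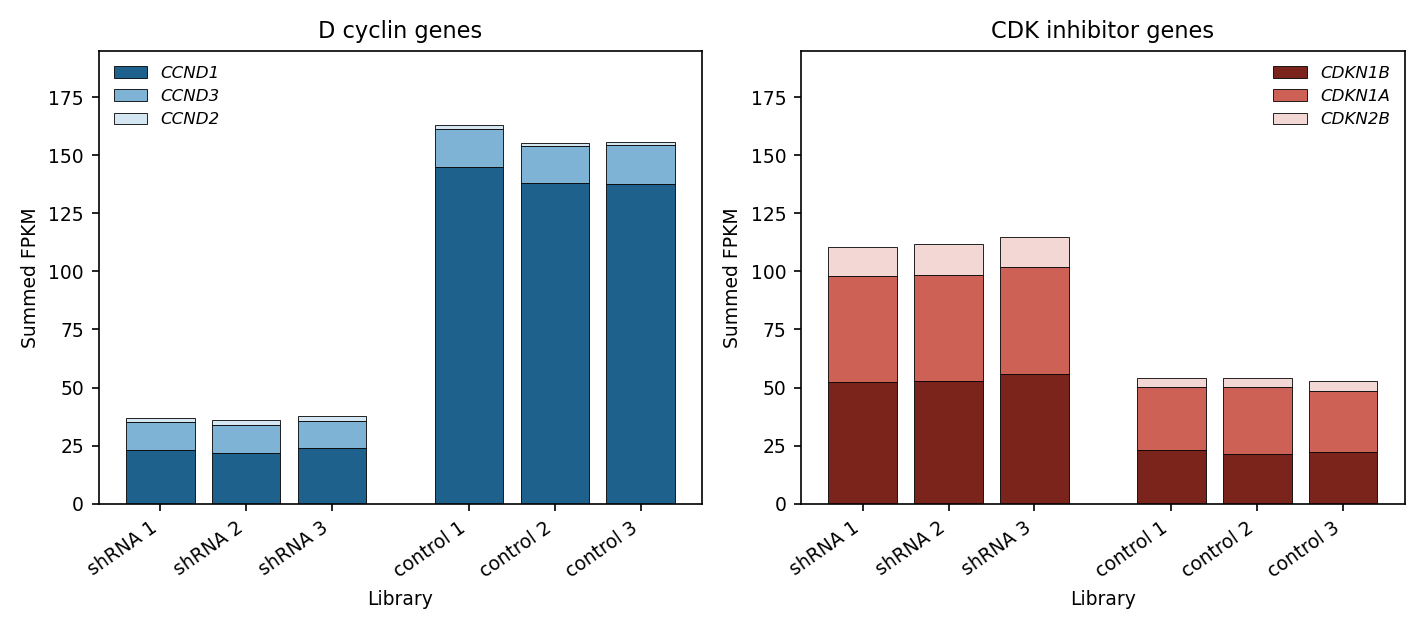
Stacked bars give the FPKM of the D cyclin genes (left) and of the CDK inhibitor genes CDKN1B, CDKN1A and CDKN2B (right) in each library. PPM1G shRNA libraries come first, and both panels have the same linear axis from 0. The D cyclin bars reach 36.1 to 38.0 FPKM in PPM1G shRNA libraries and 155.2 to 162.9 FPKM in control libraries, while the inhibitor bars reach 110.5 to 114.7 FPKM in PPM1G shRNA libraries and 52.96 to 54.1 FPKM in control libraries.

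The kinases CDK4 and CDK6 bind the same cyclins and phosphorylate the same RB proteins, but their transcripts differed in response. CDK6 (Entrez 1021; chromosome 7, positions 92604921 to 92836573) stood at 301, 303 and 304 CPM in PPM1G shRNA libraries 1 to 3, against 197, 193 and 174 CPM in control libraries 1 to 3. All PPM1G shRNA libraries were above all control libraries, and control library 3 was the lowest. CDK6 rose by 0.69 on the log2 scale (SE 0.04, edgeR adjusted p = 2.7e-17), or 1.61-fold (95% interval 1.53 to 1.70). CDK4 (Entrez 1019; chromosome 12, positions 57747727 to 57752310) stood at 147, 151 and 157 CPM in PPM1G shRNA libraries 1 to 3, against 159.9, 164 and 170.1 CPM in control libraries 1 to 3. The highest PPM1G shRNA library was just under the lowest control library. CDK4 was called lower with a log2 fold change of −0.12 (SE 0.03, edgeR adjusted p = 0.0028), to 0.923 of the control level (95% interval 0.879 to 0.969). This call rested on the scaling. With plain library totals the log2 fold change of CDK4 was −0.016 (adjusted p = 0.67), and in FPKM, which scale with the plain totals, the groups overlapped at 81.7 to 87.3 FPKM in PPM1G shRNA libraries and 82.7 to 88.0 FPKM in control libraries. Plain totals also moved the median log2 fold change of all genes tested to 0.12, so that CDK4 lay below that median by a like amount under both scalings.

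CDK4 stayed the more abundant kinase transcript per length in all 6 libraries. CDK4 averaged 84.2 ± 2.9 FPKM in PPM1G shRNA libraries and 85.2 ± 2.7 FPKM in control libraries, and CDK6 averaged 26.1 ± 0.19 FPKM in PPM1G shRNA libraries and 15.1 ± 1.0 FPKM in control libraries. CDK4 held 75.9%, 76.2% and 76.9% of their sum in PPM1G shRNA libraries 1 to 3, against 84.0%, 84.5% and 86.3% in control libraries 1 to 3. The share was lower in every PPM1G shRNA library, by 8.59 percentage points between the means (exact two-sided permutation p = 0.1, the smallest possible). The protein-coding gene TSPAN31 (positions 57745039 to 57750219) overlaps a large part of the CDK4 locus (57747727 to 57752310). TSPAN31 rose by 0.67 (SE 0.08, edgeR adjusted p = 2.1e-09), to 21.6 CPM in PPM1G shRNA libraries against 13.6 CPM in control libraries. How reads in the overlap were assigned is not given in the sources used here. CDK6 overlaps long non-coding RNA genes, among them CDK6-AS1.

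The 3 CDK inhibitor genes all rose, and by different amounts. CDKN2B (Entrez 1030; chromosome 9, positions 22002903 to 22009313) encodes p15, an INK4 inhibitor that is known to be induced by TGF-beta. It stood at 48.2, 52.0 and 48.7 CPM in PPM1G shRNA libraries 1 to 3, against 15.3, 16.7 and 17.6 CPM in control libraries 1 to 3. Every PPM1G shRNA library was well above every control library. CDKN2B rose by 1.59 (SE 0.06, edgeR adjusted p = 1.4e-21), or 3.01-fold (95% interval 2.76 to 3.28), and 10.3% of all genes tested had a larger absolute log2 fold change. The long non-coding gene CDKN2B-AS1 overlaps the whole locus and extends past it. Without a stated strand setting, its reads within the locus cannot be told apart from those of CDKN2B.

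CDKN1B (Entrez 1027; chromosome 12, positions 12717368 to 12722369) encodes p27, an inhibitor associated with quiescence that is largely controlled through its protein turnover. It stood at 122, 123 and 129.5 CPM in PPM1G shRNA libraries 1 to 3, against 57.3, 53.8 and 56.1 CPM in control libraries 1 to 3. The groups were far apart, and CDKN1B rose by 1.17 (SE 0.04, edgeR adjusted p = 1.1e-22), or 2.24-fold (95% interval 2.12 to 2.38). CDKN1A (Entrez 1026; chromosome 6, positions 36676463 to 36687332) encodes p21, which arrests the cycle after DNA damage. It stood at 119.8, 119 and 121 CPM in PPM1G shRNA libraries 1 to 3, against 76.8, 79.9 and 73.9 CPM in control libraries 1 to 3. The groups did not overlap, and CDKN1A rose by 0.64 (SE 0.04, edgeR adjusted p = 3.3e-16), or 1.56-fold (95% interval 1.48 to 1.65). The 95% intervals of CDKN2B, CDKN1B and CDKN1A did not overlap each other, so the order of the rises held within these libraries. The non-coding gene DINOL overlaps the CDKN1A locus, whereas CDKN1B and CCND1 overlap no other gene in the RefSeq table.

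Per length, the order of the inhibitors differed between groups. CDKN1B was the most abundant in PPM1G shRNA libraries, at 53.7 ± 1.7 FPKM, with CDKN1A at 45.7 ± 0.53 FPKM and CDKN2B at 12.9 ± 0.56 FPKM. In control libraries CDKN1A led at 27.3 ± 1.1 FPKM, with CDKN1B at 22.3 ± 0.69 FPKM and CDKN2B at 4.01 ± 0.29 FPKM, and the 3 genes did not overlap within either group. Together they summed to 111, 112 and 115 FPKM in PPM1G shRNA libraries 1 to 3, against 53.9, 54.1 and 52.96 FPKM in control libraries 1 to 3. The ratio of this sum to the summed D cyclins was 2.98, 3.09 and 3.02 in PPM1G shRNA libraries 1 to 3, against 0.331, 0.349 and 0.340 in control libraries 1 to 3. Transcripts of these 3 inhibitors thus outweighed D cyclin transcripts in every PPM1G shRNA library, and the reverse held in every control library. The log2 ratio was higher by 3.16 in PPM1G shRNA libraries (exact two-sided permutation p = 0.1, the smallest possible). The ratio leaves out the 4 other CDK inhibitor genes. These summed to 45.1 to 46.5 FPKM in PPM1G shRNA libraries and 46.4 to 51.9 FPKM in control libraries, so a ratio over all CDK inhibitor genes would differ less between groups. For single genes, the ratio of CDKN1B to CCND1 was 2.34 ± 0.070 in PPM1G shRNA libraries and 0.159 ± 0.0036 in control libraries (SD, n = 3 each). These are ratios of transcripts, and protein was not measured.

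The windows around the starts of the 3 inhibitor genes are shown because these genes rose together, and that of CDK4 because it moved least among the genes called. Each window runs from 250 bases before to 50 bases after a start of the gene in RefSeq, on GRCh38.p14, and is written in the gene's direction. Capitals mark GGGCGG, the GC box of the SP1 family, and CACGTG, the E-box bound by MYC and related factors, searched on both strands. The windows are chr6:36678464-36678763 (plus strand) for CDKN1A, chr12:12717118-12717417 (plus strand) for CDKN1B, chr9:22009256-22009555 (minus strand) for CDKN2B and chr12:57752261-57752560 (minus strand) for CDK4.
CDKN1A: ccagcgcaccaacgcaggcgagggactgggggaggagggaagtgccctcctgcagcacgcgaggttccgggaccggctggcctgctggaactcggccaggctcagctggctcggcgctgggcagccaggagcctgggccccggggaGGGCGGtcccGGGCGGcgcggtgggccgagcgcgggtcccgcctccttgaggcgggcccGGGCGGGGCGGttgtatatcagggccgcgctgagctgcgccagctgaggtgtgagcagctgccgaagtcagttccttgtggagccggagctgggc
CDKN1B: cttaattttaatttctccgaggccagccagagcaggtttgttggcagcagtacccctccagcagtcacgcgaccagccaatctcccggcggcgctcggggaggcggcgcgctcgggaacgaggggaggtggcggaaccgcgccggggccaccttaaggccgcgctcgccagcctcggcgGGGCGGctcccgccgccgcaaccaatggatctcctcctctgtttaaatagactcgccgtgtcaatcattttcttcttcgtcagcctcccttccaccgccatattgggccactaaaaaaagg
CDKN2B: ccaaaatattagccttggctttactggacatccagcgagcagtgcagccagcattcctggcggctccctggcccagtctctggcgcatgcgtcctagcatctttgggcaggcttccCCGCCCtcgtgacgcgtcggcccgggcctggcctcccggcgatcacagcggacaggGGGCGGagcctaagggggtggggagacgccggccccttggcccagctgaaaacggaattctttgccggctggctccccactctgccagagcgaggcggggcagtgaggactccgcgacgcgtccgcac
CDK4: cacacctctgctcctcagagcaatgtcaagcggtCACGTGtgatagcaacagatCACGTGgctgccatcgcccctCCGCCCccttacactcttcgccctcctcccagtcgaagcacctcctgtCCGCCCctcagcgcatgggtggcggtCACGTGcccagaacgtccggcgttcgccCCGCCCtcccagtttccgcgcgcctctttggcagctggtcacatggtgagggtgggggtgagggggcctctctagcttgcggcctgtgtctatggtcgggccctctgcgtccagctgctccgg
The CDKN1A window held 4 GC boxes, the last pair overlapping by 1 base, the CDKN2B window 2 and the CDKN1B window 1. Of 35116 windows of this kind in the RefSeq table, 45.0% held at least 1 GC box and 9.06% at least 4. The CDK4 window held 3 GC boxes and 3 E-boxes. An E-box was in 7.26% of all windows, and 3 or more were in 0.094%. Of the other letters searched on both strands, CCAAT was found 3 times in the CDKN1B window (34.6% of all windows held it) and not in the other 3 windows. The E2F forms TTTCCCGC (1.63% of windows) and TTTGGCGC (0.652%), the cyclic AMP response element TGACGTCA (1.85%), the AP-1 site TGANTCA (7.71%), the FOXO site GTAAACA (3.42%) and the CHR element TTTGAA (15.2%) matched none of the 4 windows. The 3 inhibitor windows thus shared a GC box and none of the other letters searched. A GC box was not particular to genes that rose. Among genes that fell, the CCND3 windows held 0, 4 and 5 and the RBL2 windows 2 and 0. The CDK6 windows held 0 and 3, and the RB1 window 0. The 4 printed windows were 62.3% to 74.3% G and C, beside a median of 58.7% over all windows. A match describes the letters of the window and is not a measured site. The RefSeq table held windows for 8 of the 10 genes, all but CCND1 and CCND2.

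In the retinoblastoma family, RBL2 fell while RB1 was not called. RBL2 (Entrez 5934; chromosome 16, positions 53434471 to 53491648) encodes p130, the pocket protein that is known to hold E2F4 in the DREAM complex of resting cells. It stood at 42.8, 43.6 and 42.1 CPM in PPM1G shRNA libraries 1 to 3, against 63.1, 62.1 and 60.1 CPM in control libraries 1 to 3. The groups did not overlap, and RBL2 fell by 0.53 (SE 0.05, edgeR adjusted p = 2.6e-12), to 0.694 of the control level (95% interval 0.650 to 0.740). The protein-coding gene AKTIP overlaps the end of the RBL2 locus and was at 10.4 CPM in PPM1G shRNA libraries against 7.45 CPM in control libraries.

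RB1 (Entrez 5925; chromosome 13, positions 48303751 to 48481890) encodes the retinoblastoma protein itself. It stood at 108, 104 and 107.7 CPM in PPM1G shRNA libraries 1 to 3, against 112, 117 and 108 CPM in control libraries 1 to 3. The groups overlapped, with PPM1G shRNA library 1 just above control library 3. The log2 fold change was −0.08 (SE 0.04, edgeR adjusted p = 0.059), and its 95% interval placed the level between 0.898 and 1.00 of the control level, so a deeper fall than to 0.898 was outside it. RB1 passed the threshold without control replicate 3 (log2 fold change −0.11, edgeR adjusted p = 0.0034) and with DESeq2 size factors (−0.08, adjusted p = 0.049), whereas with plain totals the log2 fold change was 0.022 (adjusted p = 0.59). LPAR6, which lies inside the RB1 locus, had 1 count over all 6 libraries. Per length, RB1 was at 23.1 ± 0.46 FPKM in PPM1G shRNA libraries and 22.7 ± 0.94 FPKM in control libraries, and its ratio to RBL2 was 2.80 ± 0.10 in PPM1G shRNA libraries and 2.05 ± 0.062 in control libraries (SD, n = 3 each).

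**Figure D3:**
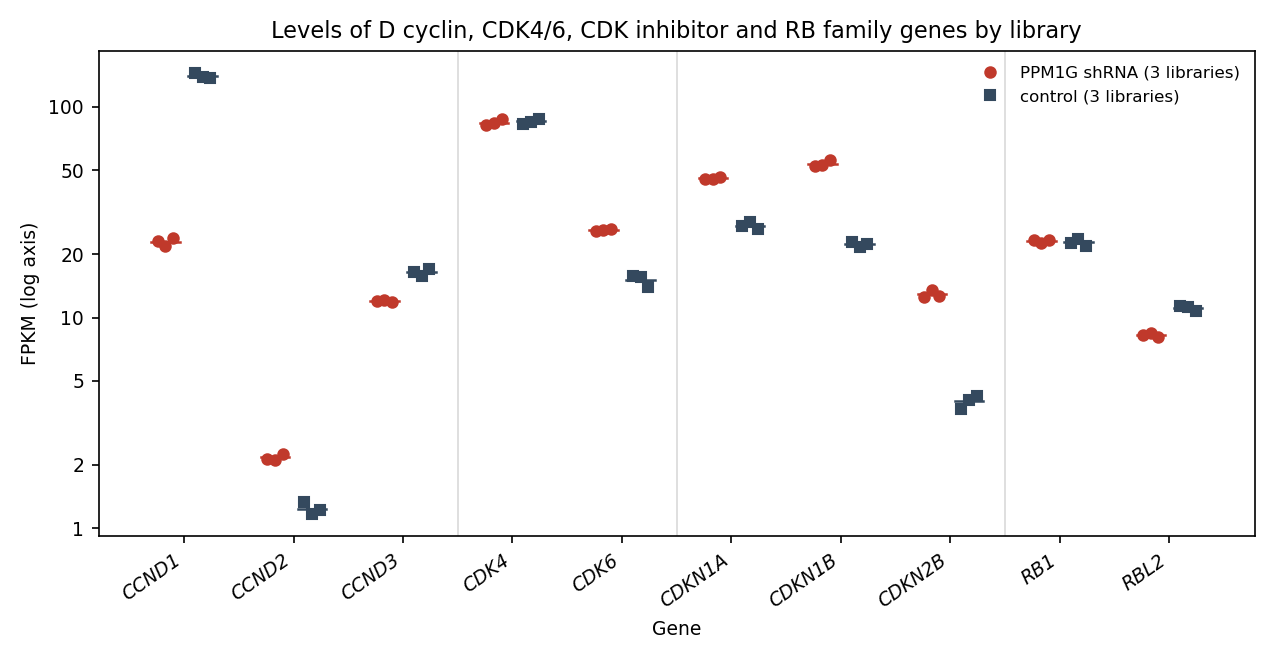
Each point is the FPKM of 1 gene in 1 library on a log axis, with PPM1G shRNA libraries left of control libraries and a bar at each mean of 3. CCND1 is at 21.9 to 23.9 FPKM in PPM1G shRNA libraries and at 137.6 to 145.0 FPKM in control libraries. The points of CDK4 and RB1 overlap between groups, and the other 8 genes do not.

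Across all 10 genes, CDK4 led in PPM1G shRNA libraries at 84.2 FPKM, followed by CDKN1B, CDKN1A, CDK6, RB1, CCND1, CDKN2B, CCND3, RBL2 and CCND2 at 2.17 FPKM. Of these neighbours only RB1 and CCND1 overlapped, at 22.6 to 23.4 FPKM and 21.9 to 23.9 FPKM. In control libraries CCND1 led at 140.3 FPKM, followed by CDK4, CDKN1A, RB1, CDKN1B, CCND3, CDK6, RBL2, CDKN2B and CCND2 at 1.24 FPKM. There only RB1 and CDKN1B overlapped, at 21.8 to 23.7 FPKM and 21.6 to 22.9 FPKM. CCND1 thus stood sixth in PPM1G shRNA libraries and first in control libraries, and the replicates of a group were close, with a coefficient of variation of the CPM between 0.497% and 7.19% over the 10 genes and both groups.

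By distance between their centred log2 CPM over the 6 libraries, among 10142 genes with a mean log2 CPM of at least 3, the genes most like CCND1 were TPX2 (distance 0.072), PTTG1 (0.109) and MCM3 (0.119). TPX2 encodes a spindle assembly factor, PTTG1 securin and MCM3 a subunit of the replicative helicase. Their log2 fold changes were −2.73, −2.74 and −2.72. Those most like CDKN2B were ARHGAP45 (0.075), TUFT1 (0.102) and ABTB2 (0.119), with log2 fold changes of 1.61, 1.54 and 1.60. The distance is dominated by the difference between groups, so it ranks mainly likeness in the size of the change.

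The genes around these 10 in the pathway were described by lists, with the same test over all genes. Directly downstream, the textbook E2F-dependent S-phase genes fell in 20 of 20 cases, all past 2-fold. Over all genes tested, 41.3% were lower, and 12.4% were lower past 2-fold. Their median log2 fold change was −2.96, beside 0.01 over all genes tested. RRM2, the small subunit of ribonucleotide reductase, fell by 6.39 (SE 0.07), and UHRF1, a chromatin factor of replicating DNA, fell by 4.87 (SE 0.09). Cyclin E, cyclin A, CDK2 and its activating phosphatase CDC25A fell in 5 of 5 cases (median −2.60), including CCNE2 (−3.96, SE 0.13) and CCNA2 (−3.29, SE 0.07). Of the E2F genes that RB holds in check, E2F1 fell by 2.60 (SE 0.08), E2F3 rose by 0.13 (SE 0.05, edgeR adjusted p = 0.017), and E2F2 had 1 count over the PPM1G shRNA libraries against 146 over the control libraries. Scaled with TMM factors, the ratio was 0.00663, and its exact 95% interval, for counting error alone, ran between 0.000167 and 0.0375. These S-phase falls were already known from the same libraries when the lists were written and are not independent of them.

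Among the other RB family, DREAM and MuvB complex genes, 8 of the 10 genes tested were lower and 1 was higher (median −0.61). Over all genes tested, 41.3% were lower and 41.5% higher. RBL1, which encodes the third pocket protein p107 and is itself an E2F target, fell by 1.51 (SE 0.06), and TFDP1, the dimer partner of the E2F factors, fell by 1.39 (SE 0.04). E2F5 rose by 0.94 (SE 0.05). Thus of the 3 pocket protein genes, RBL1 and RBL2 fell and RB1 was not called. The other CDK inhibitor genes were divided, with 2 of 4 higher and 2 lower. CDKN1C, which encodes the CIP/KIP inhibitor p57, rose by 1.64 (SE 0.09), while the INK4 gene CDKN2C fell by 0.84 (SE 0.05). CDKN2A, the INK4 neighbour of CDKN2B on chromosome 9, was expressed in all 6 libraries, with 2032 to 2752 counts, and fell by 0.35 (SE 0.05, edgeR adjusted p = 2.9e-08), and CDKN2D rose by 0.29 (SE 0.10, edgeR adjusted p = 0.010). All 3 CIP/KIP genes therefore rose, whereas of the 4 INK4 genes CDKN2B and CDKN2D rose and CDKN2A and CDKN2C fell. In the CDK-activating kinase, which phosphorylates CDK4 and CDK6 themselves, CDK7 rose by 1.02 (SE 0.05), MNAT1 fell by 0.34 (SE 0.05) and CCNH was not called (−0.01, SE 0.04).

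**Figure D4:**
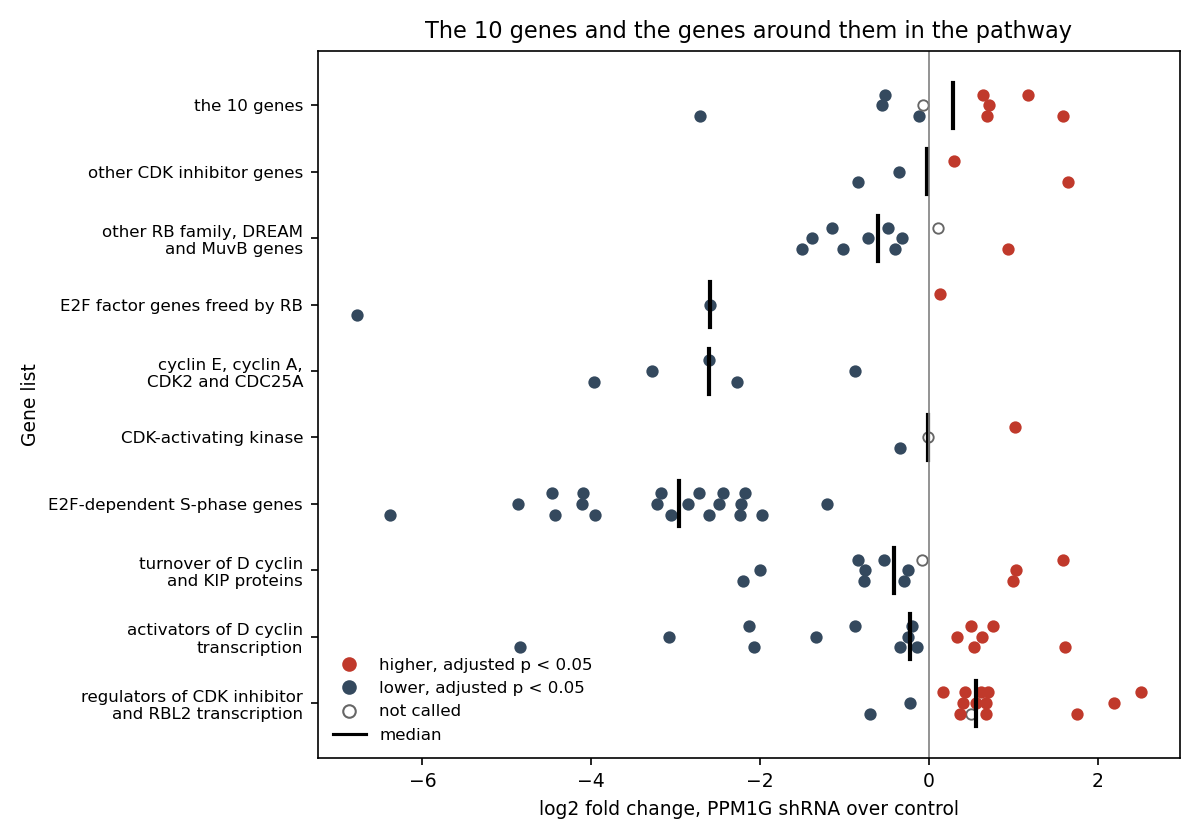
Each point is the log2 fold change of 1 gene in PPM1G shRNA over control libraries, filled where edgeR's adjusted p was under 0.05, and black bars are list medians. The E2F-dependent S-phase genes all lie left of −1, while the 10 genes spread from −2.71 (CCND1) to 1.59 (CDKN2B); the leftmost point, E2F2, had 1 count in the PPM1G shRNA libraries, so its fitted value depends on the prior count.

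Of the genes for turnover of D cyclin and KIP proteins, 8 of 12 fell and 3 rose, with a median of −0.41. Over all genes tested, 41.3% were lower and 41.5% higher. Of the rises, that of CRYAB rested on 5 to 27 counts in a library. The p27 ubiquitin ligase subunit SKP2 fell by 2.00 (SE 0.09) and its cofactor CKS1B by 2.20 (SE 0.05). AMBRA1 and FBXO31, which direct D cyclins to degradation, rose by 1.00 (SE 0.05) and 1.03 (SE 0.05), and GSK3B, the kinase that marks cyclin D1 for export and degradation, fell by 0.84 (SE 0.04). The textbook activators of D cyclin transcription had 6 rises and 10 falls among 16 genes (median −0.23), beside the same shares over all genes tested. The ETS genes on the list were divided. ETV4, ETV5 and ETS2 fell by 4.85 (SE 0.12), 3.08 (SE 0.06) and 0.34 (SE 0.05), while ETS1 rose by 0.50 (SE 0.03). The AP-1 genes were divided too. FOSL1 and FOS fell by 2.07 (SE 0.04) and 1.34 (SE 0.10), while JUN rose by 0.63 (SE 0.03). CTNNB1, which encodes beta-catenin, fell by 0.14 (SE 0.03) and STAT3 rose by 1.61 (SE 0.03). In FPKM, which scale with plain totals, CTNNB1 averaged 73.8 ± 0.92 in PPM1G shRNA libraries and 75.9 ± 1.6 in control libraries. How far its call depends on the scaling was not tested.

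The textbook regulators of CDK inhibitor and RBL2 transcription form a list of activators and repressors, so its count has no single direction. Of 15 tested genes, 12 were higher and 2 lower (median 0.56), beside 41.5% higher and 41.3% lower over all genes tested. FOXO1, a forkhead factor known to activate CDKN1B and RBL2, rose by 2.19 (SE 0.07), FOXO3 by 0.67 (SE 0.03) and FOXO4 by 0.70 (SE 0.09). The TGF-beta signal transducers SMAD2, SMAD3 and SMAD4 rose by 0.37 (SE 0.04), 0.68 (SE 0.03) and 0.62 (SE 0.04). SP1, a GC box factor known to activate CDKN1A, fell by 0.23 (SE 0.04). Among repressors, the Polycomb genes known to act on the INK4 locus did not move together. EZH2, a Polycomb methyltransferase, fell by 0.70 (SE 0.06), CBX7 rose by 0.42 (SE 0.07) and BMI1 was not called (0.50, SE 0.24, edgeR adjusted p = 0.054). TFAP4, which encodes a repressor of CDKN1A, rose by 0.56 (SE 0.09).

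All 10 genes carry the KEGG cell cycle annotation in the deposited table. Of 110 other tested genes with that annotation, 74 fell and 28 rose, and 8 were not called, beside 41.3% lower and 41.5% higher over all genes tested. Changes past 2-fold were seen in 43 of the falls and 7 of the rises, beside 12.4% lower and 11.8% higher past 2-fold over all genes tested. The median log2 fold change was −0.62. The median of the 10 genes was 0.28. No member lay near it: it falls in the gap between RB1 at −0.08 and CDKN1A at 0.64. Its sign therefore depends on which genes were chosen as members. This annotation list was added after its values could be seen, and the difference between the medians was not tested.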

How the data were processed

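The members and gene lists were chosen with earlier results of these data known. Per the labels' protocols, RNA was column-purified and a SMARTER mRNA kit was used for the libraries. The authors deposited raw counts per gene, judged from the values, and FPKM proportional to these counts. The build was GRCh38, per the submitters' processing notes. Aligner, counting program and strand setting: not given in the sources used here. Replicates were not pooled.

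Counts were analysed with edgeR 4.0.16 in R 4.3.3 (expression filter with a minimum of 10 counts, TMM factors, robust quasi-likelihood fit, group as the only term), with limma 3.58.1 and DESeq2 1.42.0 as alternatives. Adjustment was by Benjamini-Hochberg over 13060 genes, with a threshold of 0.05, and log2 fold changes are PPM1G shRNA over control. The SE was derived from the size of the log2 fold change and its F statistic. The fit was tested on simulated data in which few genes changed, equally up and down. In the real data 82.9% of genes were called, so that test cannot speak for scaling or error rates here. Levels are relative within a library, so a change of total RNA per cell would not be seen. Within a group, the counts of library pairs differed by more than sampling noise (chi-square per degree of freedom 2.69 to 6.44), and each library was kept as a replicate.

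Genes named were PPM1G, the 10 genes, the 2 largest called changes of each list and the 3 nearest genes of CCND1 and CDKN2B. Other list genes were named for their role, after their values were seen. Positions, overlaps and promoter windows came from RefSeq tables on GRCh38.p14, matched by Entrez ID. Some genes and 1 gene list of the rule are not reported here.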

Additional observations from a re-analysis of the deposited data

How the results depend on the processing

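Of the 10 genes, 8 kept their direction and call under all 18 alternatives, and the exceptions were CDK4 and RB1. CDK4 kept its direction but missed the threshold with plain totals and in the 3 limma fits on log2 FPKM (adjusted p 0.66 to 0.72). RB1 changed sign, without passing the threshold, at 0.022 with plain totals. Plain totals also moved the median log2 fold change of all genes tested from 0.01 to 0.12. In the limma fits on log2(FPKM + 1), log2(FPKM + 0.1) and log2(FPKM + 1) without a filter, RB1 was at 0.022, 0.023 and 0.022, again without passing. RB1 passed with DESeq2 size factors and without control replicate 3. Leaving out 1 library in turn gave 10531 to 10836 calls over all genes, beside 10821 with all 6. Same-numbered libraries did not deviate together (correlations −0.020 to 0.014), so the numbers were not taken as pairs. With the replicate block, 10805 genes were called, and among the 10 genes 5 were higher and 4 lower, as without it. In TMM-scaled CPM, which is not per length, the share of CCND1 among the D cyclins differed by −24.9 percentage points, that of CDK4 by −13.4 percentage points and the log2 ratio of inhibitors to D cyclins by 3.24, since longer transcripts weigh more. By Pearson correlation the 3 nearest genes of CCND1 and of CDKN2B were other genes (0 shared). Depth limits none of the 10 genes, since the lowest count was 269.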
